A study of Mus musculus with 36 samples.

Results

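The genes described here encode the enzymes and carriers by which mitochondria and peroxisomes burn fatty acids. The list holds 32 genes, 22 of them mitochondrial and 10 peroxisomal, and its members were found by gene symbol in the annotation of the array's probe sets. All 32 were measured, on 33 probe sets out of 23410 that carry a symbol (19938 genes). Hadhb has 2 probe sets, and the brighter one was counted. The RNA came from adipocytes isolated from male mice on the C57BL/6J background and was hybridized to Affymetrix Mouse Gene 1.0 ST arrays. Wild type mice ate chow and were taken at 6, 14 or 18 months, or ate a high-fat diet (HFD, 60% of calories from fat) and were taken at 6 or 14 months. Per the study, the HFD was fed for the last 12 weeks. Leptin-deficient ob/ob mice, which become obese because they lack the satiety hormone leptin, ate standard chow and were taken at 6 months. Each of these 6 conditions was sampled as epididymal adipocytes, floated from collagenase-digested fat, and as bone marrow adipocytes, floated from flushed femurs and tibias. Each of the 12 groups has 3 arrays, 36 in all, each hybridized with RNA pooled from some of the 6 to 10 mice of its group. Per the study, both depots of a condition came from the same mice. Which arrays of the depots share mice, and whether pools of a group do, is not stated. The tests take arrays as separate and measure the spread between pools.

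In mitochondrial β-oxidation a fatty acid is activated to its coenzyme A ester, carried across the inner membrane as a carnitine ester, and shortened in repeated rounds of dehydrogenation, hydration, a further dehydrogenation and thiolysis. Carnitine palmitoyltransferase 1 is the regulated entry step. Peroxisomes shorten very long and branched chains by a related route whose hydrogen peroxide is broken down by catalase, and peroxins import the enzymes and build the organelle. White adipocytes mainly store and release fat, but they keep this machinery, and nuclear receptors of the PPAR family are known to drive many of its genes.

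Promoter sequence from RefSeq (build GRCm38.p6, 250 bases before to 50 bases after the first transcribed base) was at hand for 25 of the 32 members, in 29 windows. Nuclear receptors of the PPAR kind bind pairs of the half-site AGGTCA spaced by 1 base. The full pair, AGGTCA repeated in the same direction with any base between, searched on both strands, was in none of the 29 windows and in 0.0396% of the 32851 windows of all genes. The extended half-site TNAAGGTCA, which holds 1 half-site and is not that pair, was in none of the 29 and in 1.28% of all. The single half-site AGGTCA was in 5 of the 29 (17.2%), those of Cat, Acadm, Echs1, Acadvl and Cpt1a, against 16.3% of all. Longer motifs contain the half-site, so these matches overlap. The windows of 2 members that went opposite ways in obese epididymal adipocytes, Acadvl and Cpt1a, are printed with the half-site in capitals. It began 87 bases before the first transcribed base of Acadvl (chr11:70015379-70015678, minus strand) and 94 bases before that of Cpt1a (chr19:3323051-3323350, plus strand), where it lay on the opposite strand and reads TGACCT. The third sequence is shown because Hadha and Hadhb, the subunits of the mitochondrial trifunctional protein, start 273 bases apart in opposite directions. It is the Hadhb window (chr5:30155003-30155302, plus strand), and its capitals mark the 228 bases that it shares with the Hadha window.
Acadvl: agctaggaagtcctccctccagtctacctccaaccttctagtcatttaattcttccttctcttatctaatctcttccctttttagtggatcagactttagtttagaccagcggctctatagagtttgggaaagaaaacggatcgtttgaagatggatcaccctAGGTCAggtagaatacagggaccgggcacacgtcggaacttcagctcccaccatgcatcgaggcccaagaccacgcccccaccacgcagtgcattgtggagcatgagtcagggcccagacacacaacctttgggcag
Cpt1a: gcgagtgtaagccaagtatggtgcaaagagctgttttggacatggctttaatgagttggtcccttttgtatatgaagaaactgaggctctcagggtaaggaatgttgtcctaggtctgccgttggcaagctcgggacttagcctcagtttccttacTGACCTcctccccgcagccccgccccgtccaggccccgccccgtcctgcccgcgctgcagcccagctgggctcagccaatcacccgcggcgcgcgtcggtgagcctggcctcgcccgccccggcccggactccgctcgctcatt
Hadhb: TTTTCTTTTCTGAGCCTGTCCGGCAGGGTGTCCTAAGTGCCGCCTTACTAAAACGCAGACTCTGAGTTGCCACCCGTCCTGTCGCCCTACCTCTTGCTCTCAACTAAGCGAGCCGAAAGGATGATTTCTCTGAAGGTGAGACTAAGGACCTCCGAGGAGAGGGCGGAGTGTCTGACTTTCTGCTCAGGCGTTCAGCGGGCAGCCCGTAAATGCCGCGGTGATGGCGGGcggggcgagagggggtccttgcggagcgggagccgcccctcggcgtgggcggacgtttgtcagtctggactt

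The floated bone marrow cells were not adipocytes alone. The mean level of 10 mature adipocyte markers lay between 7.1 and 8.8 in the 18 bone marrow arrays and between 11.3 and 12.8 in the 18 epididymal ones (deposited log2 values), while 8 neutrophil markers lay between 12.0 and 12.6 and between 5.2 and 9.3. In such bulk RNA, fewer cells of a type and less RNA per cell cannot be told apart. A set of 8 arrays also stood apart from the other 28 on 18 probe sets without a gene symbol, by gaps of at least 1 on the log2 scale. It holds all 3 arrays of HFD mice at 6 months in both depots, array 1 of bone marrow chow at 6 months and array 3 of bone marrow ob/ob. No label names a batch, and this set was found in the data. In epididymal adipocytes the HFD at 6 months cannot be told apart from the set, except by carrying over its size from bone marrow, where the chow group and the ob/ob group hold both kinds of array. Results that rest on these arrays are therefore given also from a fit with a term for the set.

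RNA of most members was far more abundant in epididymal adipocytes than in bone marrow preparations. In 6-month chow mice 30 of the 32 members were higher in epididymal adipocytes and 1 was lower, where 23.5% of all tested probe sets were higher and 21.1% lower. The median member difference was 2.29 on the log2 scale, against 0.05 over all probe sets. All 10 peroxisomal members were higher, 9 of them at least 2-fold, and so were 20 of the 22 mitochondrial members, 19 of them at least 2-fold, as were 11.8% of all probe sets. The peroxisomal thiolase Acaa1a, higher by 0.48, lost its call with 5 of the 6 arrays left out in turn. A member was counted as higher or lower, or called, when its limma p, adjusted by Benjamini and Hochberg over the 23410 probe sets, was under 0.05. The fit takes all groups together and pools their spread.

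The peroxisomal genes were among the clearest. Abcd2, a transporter that brings very long chain fatty acids into the peroxisome, read 12.43, 12.50 and 12.49 in the 3 epididymal arrays and 8.74, 8.75 and 9.09 in the 3 bone marrow arrays. The difference was 3.61 ± 0.16 (log2 ± SE, 12.2-fold, limma adjusted p = 2.18e-16), and the groups were far apart. Hsd17b4, the multifunctional enzyme that hydrates and dehydrogenates peroxisomal acyl-CoAs, was 14.4-fold higher (adjusted p = 3.76e-16). Pex11a, which takes part in the division of peroxisomes, read 8.78, 8.75 and 8.73 against 4.90, 4.36 and 4.73 (adjusted p = 6.46e-16). Its bone marrow readings lie below the median of 6.23 over all named probe sets and were not shown to be above background, so no fold is given. Among mitochondrial members Decr1, the reductase that removes double bonds of polyunsaturated chains, read 10.999, 10.90 and 10.95 against 6.39, 7.28 and 7.21, or 15.9-fold higher. Pdk4, the kinase that inhibits pyruvate dehydrogenase and so favours fat as fuel, had the largest difference of the members, 4.25 ± 0.44, also against bone marrow readings below that median. Hadha was 1.02 ± 0.13 higher and its partner subunit Hadhb 2.41 ± 0.22.

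The form of the entry enzyme in the list leaned the other way, by a call that was easily lost. Cpt1a, the liver form of carnitine palmitoyltransferase 1, read 9.06, 8.97 and 8.97 in epididymal and 9.68, 9.18 and 9.52 in bone marrow arrays, a difference of -0.46 ± 0.19 (limma adjusted p = 0.0492). That call was lost with 5 of the 6 arrays left out in turn, and also when a term for the set was fitted (-0.26). The other exception, Bdh1, which uses and forms the ketone body β-hydroxybutyrate, did not pass the test at -0.31 ± 0.15 and read between 4.54 and 5.49 in all 36 arrays.

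The same order of the depots held for the median level of the 33 probe sets in the other conditions. In epididymal groups it lay between 9.93 (ob/ob) and 10.6 (HFD at 14 months), and in bone marrow groups between 7.88 (HFD at 6 months) and 8.41 (HFD at 14 months). These medians are a description and were not tested against each other.

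**Figure D1:**
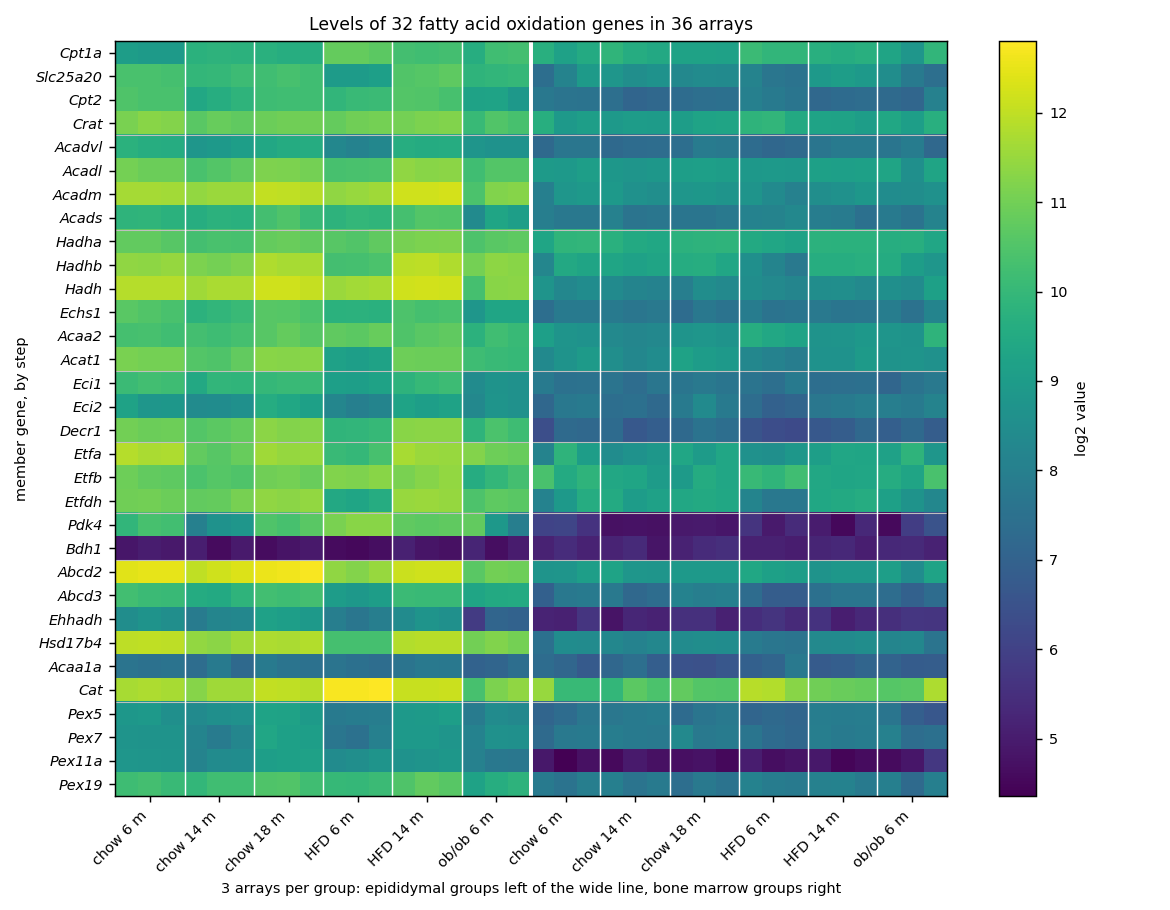
Deposited log2 values of the 32 members (rows, grouped by step from the carnitine shuttle at the top to the peroxins at the bottom) in 36 arrays (columns, 3 per group, m for months). Epididymal arrays, left of the wide line, are brighter than bone marrow arrays in most rows, and least so for Cpt1a, Bdh1 and Acaa1a.

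**Figure D2:**
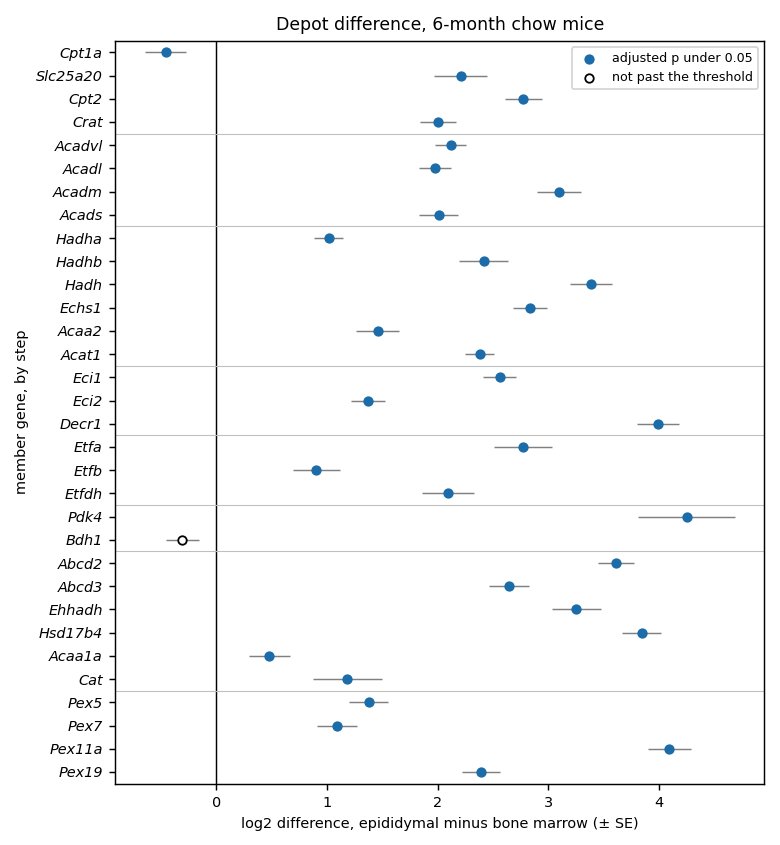
Log2 difference of each member between epididymal and bone marrow preparations of 6-month chow mice, with its SE. Filled points passed an adjusted p under 0.05: 30 members lie above 0, Cpt1a below it, and Bdh1 did not pass.

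On the HFD at 6 months most members that changed in epididymal adipocytes were lower, in both organelles. Of the 32 members 17 fell and 2 rose, where 20.0% of all probe sets fell and 19.2% rose. The members' median was -0.64 and that of all probe sets -0.11. The fall took in 11 of 22 mitochondrial and 6 of 10 peroxisomal members, 11 of the 17 by at least 2-fold, against 5.21% of all probe sets, and the 2 members that rose were Cpt1a and Cat. In the fit with the set term 13 were lower and 1 higher, where 10.6% and 10.8% of all probe sets were, and the median was -0.60. In both fits 9 of the falls and the rise of Cpt1a were called.

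Acat1, the thiolase that closes the last round and also acts in ketone metabolism, had the smallest adjusted p. It read 11.10, 11.02 and 11.02 on chow and 9.19, 9.09 and 9.24 on the HFD, a fall of 1.87 ± 0.13 (3.66-fold, limma adjusted p = 9.63e-12), and it fell by 1.58 with the set term. Acadvl, the dehydrogenase of very long chains, read 9.77, 9.61 and 9.58 against 8.27, 8.10 and 8.27, a fall of 1.44 ± 0.14 (2.72-fold, adjusted p = 3.26e-09). Its fall was 0.93 with the set term. None of the HFD arrays of these 2 genes reached a chow array. Echs1, the short-chain hydratase, and Eci1 and Eci2, the isomerases that shift double bonds into place, fell in both fits too, Eci1 by 1.03 and by 1.37 with the term. Acadl, the long-chain dehydrogenase, fell by 0.57 and 0.72.

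Among peroxisomal members 3 fell in both fits. Hsd17b4 read 11.96, 11.98 and 11.98 on chow and 10.31, 10.31 and 10.32 on the HFD, and fell by 1.66 ± 0.18 (3.16-fold, limma adjusted p = 2.29e-08), or by 0.86 with the set term. Abcd2 read 11.40, 11.25 and 11.50 on the HFD, every array below the chow arrays given above, and fell by 1.09 and by 1.24 with the term. Abcd3, another transporter of the peroxisomal membrane, fell by 1.18 and 0.84.

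Cpt1a rose, the only one of the 22 mitochondrial members to do so, where 11 fell. It read 9.06, 8.97 and 8.97 on chow and 10.81, 10.80 and 10.68 on the HFD, a rise of 1.76 ± 0.19 (3.40-fold, limma adjusted p = 1.90e-08), and of 1.17 with the set term (adjusted p = 0.000261). Slc25a20, which carries the carnitine ester that Cpt1a makes across the inner membrane, read 10.40, 10.40 and 10.33 against 9.003, 9.004 and 9.14 and fell by 1.32, but by 0.40 with the set term, which did not pass. Cpt2 and Crat, the other carnitine acyltransferases, passed only with the term, at -0.88 and -0.84.

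The second riser, Cat, moved with the set of arrays. Catalase read 11.70, 11.76 and 11.70 on chow and 12.74, 12.74 and 12.81 on the HFD, a rise of 1.04 ± 0.31. In bone marrow chow it read 11.51 in array 1, which is in the set, and 10.05 in each of the others, and in bone marrow ob/ob 11.77 in array 3 against 10.56 and 10.65. The epididymal difference with the set term was -0.28 (limma adjusted p = 0.551). Etfa and Etfdh, which pass electrons from the dehydrogenases to the respiratory chain, fell by 1.64 and 1.51, and by 0.61 each with the term, which did not pass. Etfdh read 8.10 in array 1 of bone marrow chow and 8.91 and 9.59 in arrays 2 and 3.

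Hadha and Hadhb, whose promoter windows overlap, gave unlike readings in the set. Hadhb read 11.40, 11.36 and 11.47 on chow and 10.28, 10.32 and 10.40 on the HFD, a fall of 1.08 ± 0.22, and its second probe set fell by 1.11. Hadha read 10.78, 10.78 and 10.60 against 10.63, 10.50 and 10.75, and its difference of -0.10 ± 0.13 did not pass. Neither passed with the set term, at -0.24 for Hadhb and 0.33 for Hadha. Decr1, Ehhadh, Pex5 and Pex7 also fell in the deposited values (by 0.72 for Ehhadh to 1.01 for Decr1) but did not pass with the term. Hadh, the dehydrogenase of shorter chains, and Pex11a passed only with it, at -0.77 and -0.86. The members not past the threshold in either fit were Acadm and Acads, Hadha, Acaa2, Etfb, Pdk4, Bdh1, Acaa1a and Pex19.

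**Figure D3:**
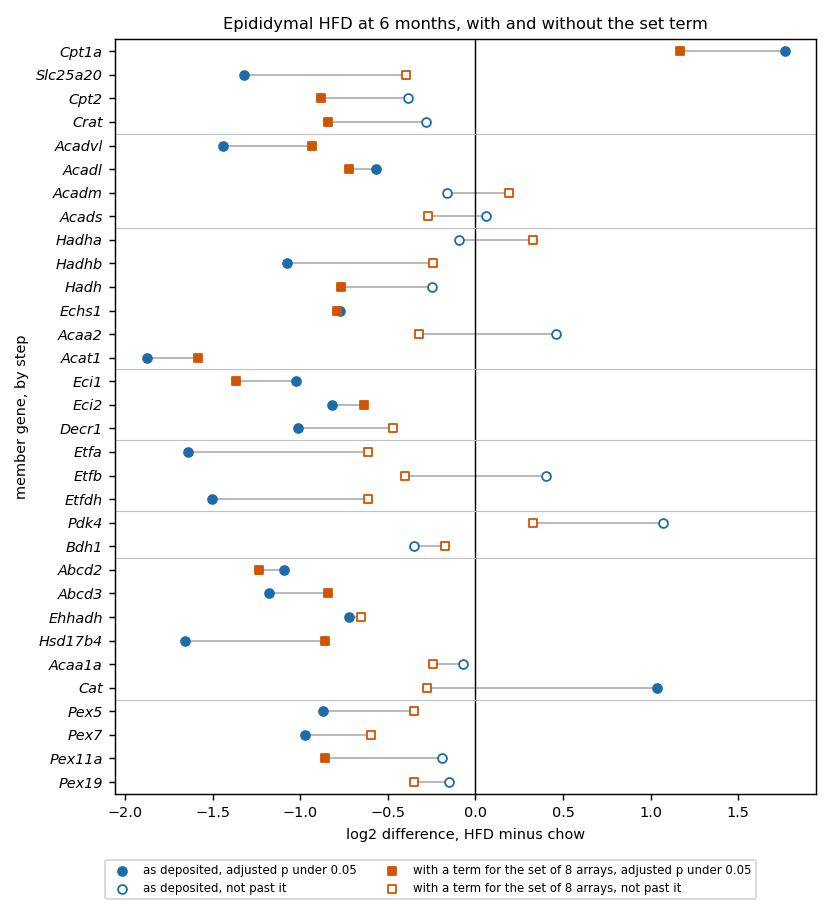
Log2 difference between HFD and chow epididymal adipocytes at 6 months for each member, from the deposited values (circles) and with a term for the set of 8 arrays (squares), filled where the adjusted p was under 0.05. Cpt1a stays on the right and Acat1, Acadvl, Hsd17b4, Abcd2 and Eci1 stay on the left, while Cat, at 1.04 and -0.28, crosses 0.

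In epididymal adipocytes of ob/ob mice, none of whose arrays is in the set, most members had lower levels. Of the 32 members 20 fell and 1, Cpt1a, rose, where 15.0% of all probe sets fell and 14.8% rose. The median was -0.77, against -0.07 over all probe sets. The falls took in 13 of 22 mitochondrial and 7 of 10 peroxisomal members, and 5 of them were at least 2-fold, against 4.14% of all probe sets. All 4 acyl-CoA dehydrogenases fell, Acadm losing its call with 1 of the 6 arrays left out in turn.

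Eci1 read 8.44, 8.68 and 8.64 in the ob/ob arrays, with 10.12, 10.24 and 10.17 on chow, a fall of 1.59 ± 0.15 (limma adjusted p = 2.49e-09). Abcd2 read 10.66, 10.99 and 10.95, below all chow arrays, and fell by 1.61 ± 0.16 (3.05-fold, adjusted p = 1.19e-08). Echs1 read 8.81, 9.31 and 9.33 against 10.64, 10.52 and 10.39 and fell by 1.37 ± 0.15. For none of these 3 genes did the groups overlap. In all, 27 members had every ob/ob array below every chow array, as had 23.0% of all probe sets. Ehhadh, the bifunctional enzyme of peroxisomal oxidation, fell the most. It read 5.84, 7.10 and 7.03 there, against 8.51, 8.71 and 8.53 on chow, and fell by 1.93 ± 0.22 (3.81-fold, adjusted p = 1.05e-07), with ob/ob array 1 well below the other arrays of its group. Cpt2 fell by 1.32 ± 0.17, Acat1 by 0.95 and Acadvl by 0.96.

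Cpt1a was again the exception, reading 9.63, 10.21 and 10.27 in ob/ob against 8.97 to 9.06 in chow mice, a rise of 1.04 ± 0.19. Pdk4 was the most scattered member, at 10.77, 8.87 and 7.96 in ob/ob, a range that spans the chow values of 9.91, 10.33 and 10.26. Its difference of -0.97 ± 0.44 did not pass. Cat, at 10.34, 11.15 and 11.40, lay below chow by 0.76 ± 0.31 and did not pass. Hadha and Hadhb, at -0.12 and -0.18, did not pass either.

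Set directly against the HFD group of the same age, ob/ob epididymal adipocytes had 16 members lower and 9 higher, where 17.3% and 14.7% of all probe sets were. All HFD arrays of that comparison are in the set and no ob/ob array is, and with the set term only 2 members were lower and 1 higher, where 5.61% and 5.79% of all probe sets were. The 3 were Ehhadh, at -1.21 and -1.28 with the term, Acadm, at -0.54 and -0.89, and Acat1, at 0.92 and 0.63. The call of Acadm in the deposited values was lost with 4 of the 6 arrays left out in turn. Cat, 1.79 lower in ob/ob from the deposited values, was 0.48 lower with the term and did not pass.

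At 14 months the HFD had the opposite direction in epididymal adipocytes. Of the 32 members 14 rose and none fell, where 6.00% of all probe sets rose and 7.06% fell. The members' median was 0.55, against 0.03 over all. These arrays are all outside the set. The risers were 13 of the 22 mitochondrial members and, of the 10 peroxisomal ones, the import receptor Pex7 alone, which recognises one class of peroxisomal enzymes. The rises were modest, and only that of Pdk4 reached 2-fold, against 1.13% of all probe sets. At an unadjusted p under 0.05 there were 25 higher and 0 lower, where 12.4% of all probe sets were higher and 11.5% lower.

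Pdk4 read 8.04, 8.68 and 8.78 on chow and 10.76, 10.68 and 10.74 on the HFD, a rise of 2.23 ± 0.44 (4.68-fold, limma adjusted p = 0.000664). Hadha read 10.28, 10.37 and 10.36 against 11.08, 11.14 and 11.16, a rise of 0.79 ± 0.13 (adjusted p = 0.000106). Hadhb rose by 0.77 ± 0.22, close to its divergent neighbour this time. All 4 acyl-CoA dehydrogenases rose, by 0.67 (Acadvl), 0.80 (Acadl), 0.72 (Acadm) and 0.76 (Acads). Acadvl read 8.79, 8.89 and 9.10 on chow and 9.62, 9.57 and 9.60 on the HFD, and Acadl read 10.38, 10.54 and 10.74 against 11.39, 11.32 and 11.34. The arrays of neither gene overlapped. Cpt2, Echs1, Eci2, Decr1, Etfa and Etfb also rose, by 0.45 (Echs1) to 0.83 (Etfa).

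Apart from Pex7 no peroxisomal member passed. The 6 peroxisomal oxidation genes had a median of 0.44 and ran from -0.01 (Abcd2) to 0.62 (Cat), and none was called. Fitting the set term changes no estimate here but lowers the residual spread, and 23 members then rose, 5 of them peroxisomal, where 8.45% of all probe sets rose. Without the set's arrays in the mixed bone marrow groups 25 rose, and without array 3 of the HFD group 9 did. Of the genes named above, Etfa lost its call with 6 of the 6 arrays left out in turn, Echs1 and Decr1 with 5, Hadhb with 3, Acadm with 2 and Etfb with 1. Whether the mitochondrial and peroxisomal responses differ was not tested. Across the list, 28 of the 32 members had all 3 HFD arrays above all 3 chow arrays, against 21.4% of all probe sets.

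**Figure D4:**
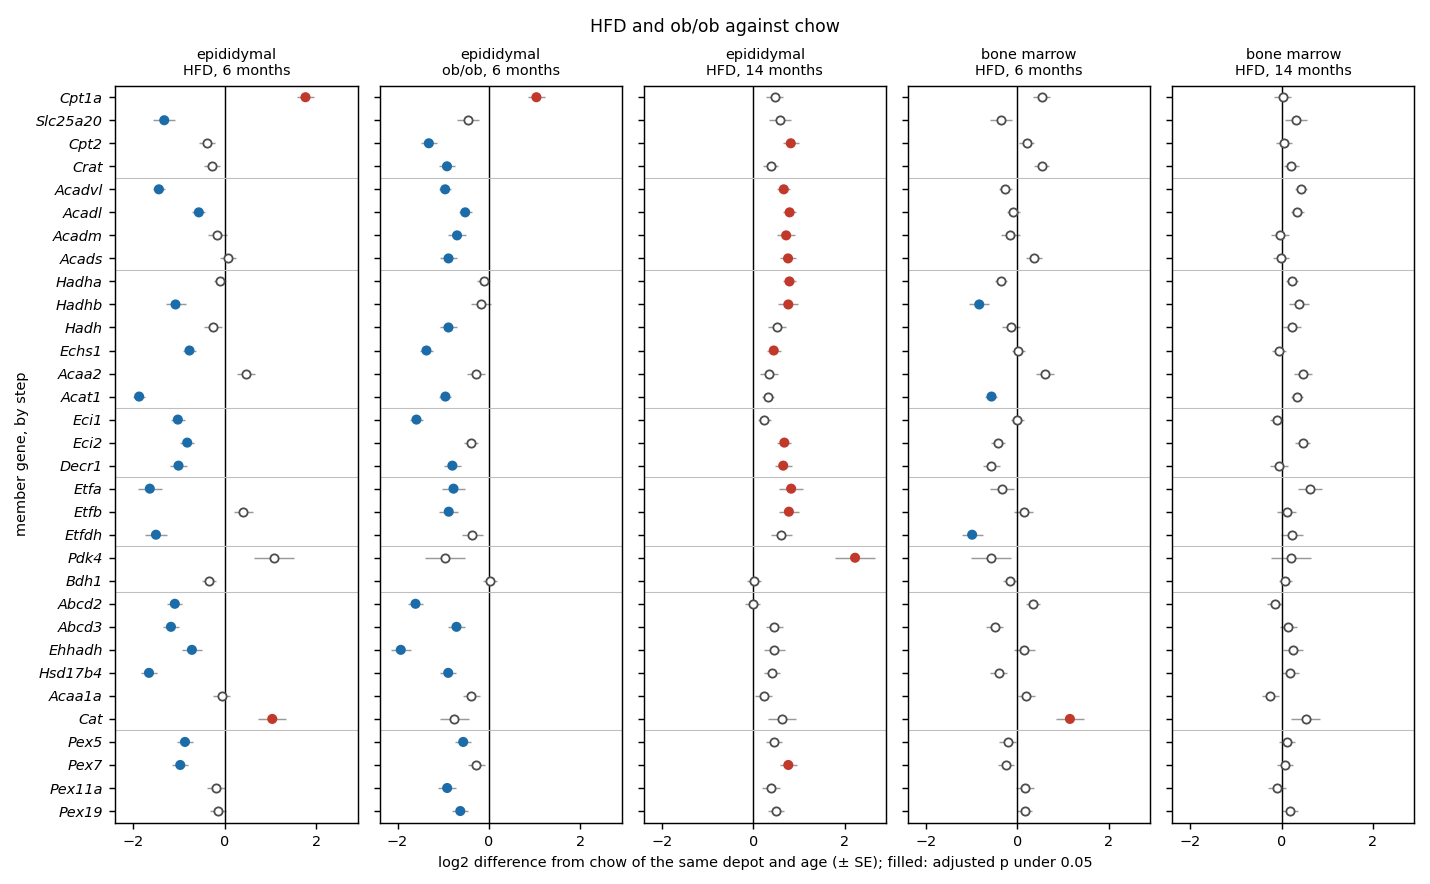
Log2 difference from chow, with its SE, for each member on the HFD or in ob/ob mice. Filled points passed an adjusted p under 0.05, red for higher and blue for lower. Epididymal adipocytes have 17 blue and 2 red points on the HFD at 6 months, 20 and 1 in ob/ob mice, and 14 red ones on the HFD at 14 months. Bone marrow has 4 filled points at 6 months and none at 14.

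The effect of the HFD differed between the ages in most members. The interaction of diet with age in epididymal adipocytes (the effect at 6 months minus that at 14) was negative in 24 members and positive in 1, Cpt1a, where 14.8% and 15.9% of all probe sets were. Its median was -1.19, against -0.11 over all. Under the set term it was negative in 25 and positive in none, where 10.4% and 10.5% of all probe sets were. It was negative in 17 of 22 mitochondrial and 7 of 10 peroxisomal members in the deposited values. The largest size was that of Etfa, which read 11.85, 11.73 and 11.76 on chow and 10.09, 9.97 and 10.36 on the HFD at 6 months, then 10.79, 10.61 and 10.84 against 11.69, 11.55 and 11.50 at 14. That interaction was -2.47 ± 0.37 (limma adjusted p = 8.25e-06) and -1.44 with the set term, which passed.

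Both sides of this contrast moved. On chow, epididymal adipocytes at 14 months had 9 members lower and 1 higher than at 6 months, where 6.14% of all probe sets were lower and 8.88% higher. Acadvl fell by 0.73 ± 0.14 (limma adjusted p = 0.000381), Cpt2 by 0.79, Etfa by 1.03 and Pdk4 by 1.67, and Cpt1a rose by 0.79. Without array 1 of the 14-month chow group 5 members were called in place of 10, and Pdk4, at -1.44, was not among them (adjusted p = 0.0626). Hadha and Eci2, counted among the 9, lost their calls with each of the 6 arrays left out in turn, Acat1 with 3, and Echs1 and Pex7 with 1. On the HFD, 22 members were higher and 1 lower at 14 months, where 16.1% and 16.2% of all probe sets were, and with the set term 21 were higher and none lower, where 9.13% and 8.08% were. Acat1 was higher by 1.74 ± 0.13 (adjusted p = 1.21e-10) and by 1.45 with the term. Etfdh read 9.46, 9.32 and 9.58 at 6 and 11.50, 11.53 and 11.46 at 14 months, higher by 2.04, or by 1.15 with the term. Cpt1a, lower by 0.50 at 14 months in the deposited values, differed by 0.09 with the term and did not pass, and its call was lost with each of the 6 arrays left out in turn.

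At 18 months on chow, against 6 months, only Cpt1a was called in epididymal adipocytes, higher by 0.65 ± 0.17 (limma adjusted p = 0.0102), where 6.82% of all probe sets were higher and 7.63% lower. It read 9.71, 9.62 and 9.63 at 18 months and 9.75, 9.83 and 9.79 at 14, in both cases above the 6-month arrays. Acadvl, at 9.43, 9.56 and 9.58, Acat1, at 11.30, 11.26 and 11.29, and Pdk4, at 10.47, 10.34 and 10.66, did not pass against 6 months. The members' median was 0.23, against -0.06 over all. In all, 17 members had every 18-month array above every 6-month array and 6 below, against 18.4% and 22.9% of all probe sets. At an unadjusted p under 0.05, 8 were higher and 0 lower, where 12.5% and 15.5% of all probe sets were. A difference of 18 from 14 months was not tested. The count at 18 months was not stable, with 11 members higher when only the 6 arrays compared entered the fit and 9 after each array was centred on its median.

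**Figure D5:**
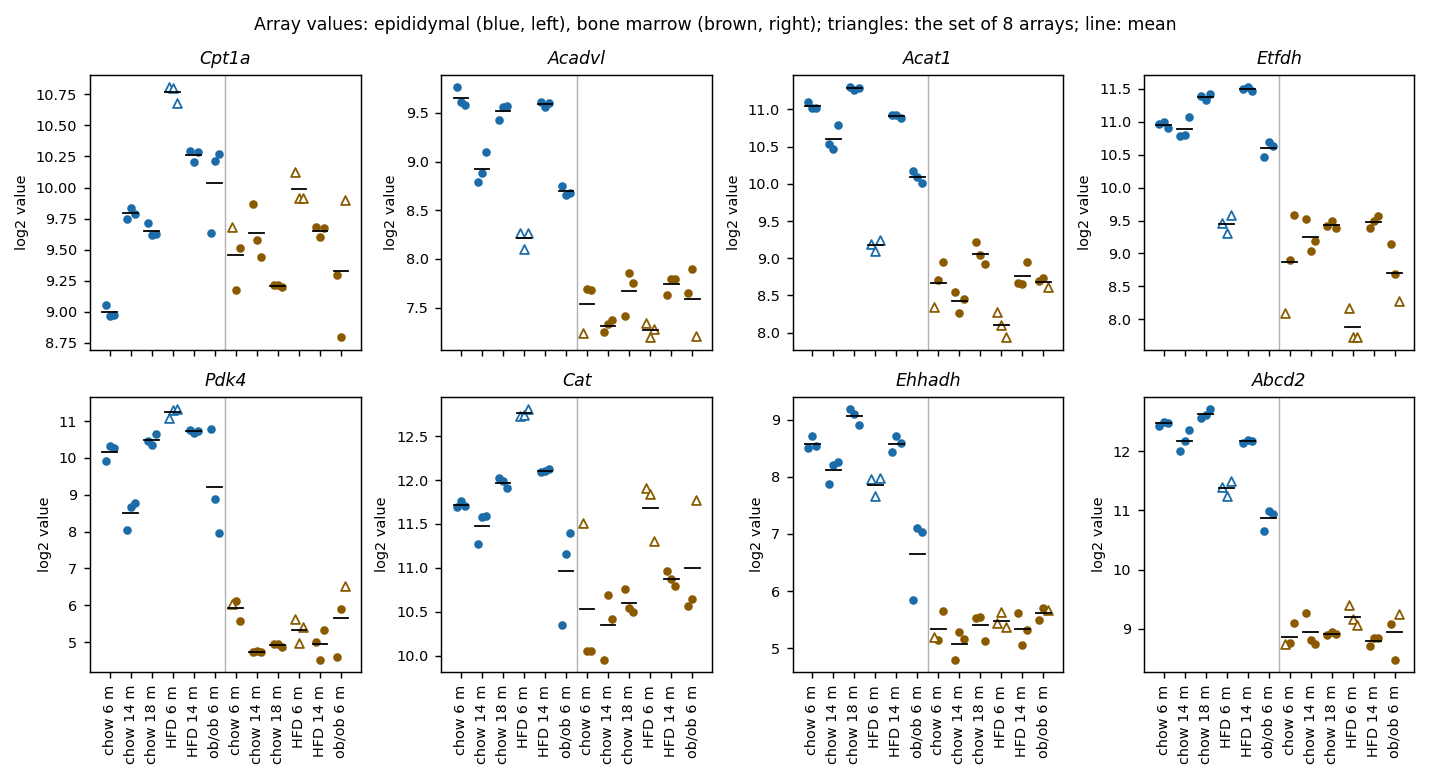
Deposited log2 values of 8 members in every array, by group (m for months), with a line at each group's mean and triangles for the set of 8 arrays. Each panel has its own axis, which does not start at 0. Cpt1a is lowest in epididymal chow at 6 months among the epididymal groups, Acadvl and Acat1 are lowest there on the HFD at 6 months, and the triangles of Cat lie above the other arrays of their bone marrow groups.

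In bone marrow few members were called. On the HFD at 6 months 3 members fell (Hadhb, Acat1 and Etfdh) and 1 rose (Cat), where 2.53% of all probe sets fell and 2.23% rose. All 3 HFD arrays and chow array 1 are in the set. No member passed with the set term, where 1.41% of all probe sets were lower and 0.431% higher, and without chow array 1, leaving 2 chow arrays, 11 were lower and 4 higher. Cat read 11.91, 11.84 and 11.31 on the HFD, and 11.51, 10.05 and 10.05 on chow, so that the chow array of the set lay among the HFD arrays. Acat1 read 8.28, 8.10 and 7.94 on the HFD and 8.35, 8.70 and 8.95 on chow. No member was called without chow array 3 or without HFD array 2, and 2 were without chow array 2 or without HFD array 3.

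At 14 months no bone marrow member of HFD mice passed in limma, where 1.10% of all probe sets rose and 1.86% fell. The smallest adjusted p was 0.106, for Acadvl, which read 7.25, 7.33 and 7.37 on chow and 7.63, 7.80 and 7.80 on the HFD, a difference of 0.42 ± 0.14 between arrays that did not overlap. In all, 13 of the 32 members had every HFD array above every chow array and 0 below, against 15.2% and 13.3% of all probe sets, and the members' median was 0.19. In ob/ob bone marrow none passed either, where 0.0726% of all probe sets rose and 0.205% fell, and no member had arrays that did not overlap, against 2.31% of all probe sets that lay wholly higher and 3.53% wholly lower. Age on chow gave the same count of 0, with no member called at 14 months, where 3.65% of all probe sets were higher and 1.65% lower, or at 18, where 2.38% were higher and 4.24% lower. The lowest adjusted p was 0.0646 at 14 months (Etfb) and 0.0527 at 18 (Abcd3). At an unadjusted p under 0.05, 6 members were higher and 0 lower on the HFD at 14 months, where 6.60% and 7.15% of all probe sets were. In ob/ob 1 was higher and 0 lower, where 3.26% and 5.45% were. At 14 months on chow 1 was higher and 4 lower, where 9.68% and 8.51% were, and at 18 months 7 and 3, where 8.09% and 12.7% were. With ordinary variances in place of limma's moderated ones 1 member passed at 18 months and none in the other 3. Without array 3 of the 6-month chow group 2 members were called at 14 months on chow and 7 at 18, and without array 2 of that group 1 and 3.

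The difference between depots in the diet effect was tested directly. At 6 months the interaction was negative, lower in epididymal adipocytes, in 9 members and positive in Cpt1a, where 7.17% of all probe sets were negative and 11.5% positive. With the term it was also negative in 9 and positive in 1, where 8.19% and 11.8% were. Among the members called, the largest size was that of Abcd2, -1.44 ± 0.23 (limma adjusted p = 4.08e-05), followed by Acat1 at -1.31 and Etfa at -1.30, while Cpt1a had 1.24 ± 0.27. Without array 3 of bone marrow chow 15 members were called in place of 10. At 14 months only Pdk4 passed, at 2.02 ± 0.62 (adjusted p = 0.0435), where 3.49% of all probe sets were positive and 3.90% negative. Its call was lost with 11 of the 12 arrays left out in turn. Pdk4 read between 4.52 and 5.34 in the bone marrow of HFD mice and 4.72, 4.77 and 4.74 in that of chow mice at that age. These lie below the median of every array (5.58 to 5.98) and were not shown to be above background, which limits what the bone marrow side of this difference can show.

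Other genes of the same organelles were counted from lists of further enzymes, peroxins and regulators. Among all probe sets 20.0% fell and 19.2% rose on the HFD at 6 months, or 10.6% and 10.8% with the set term. In ob/ob 15.0% fell and 14.8% rose, and at 14 months on the HFD 7.06% fell and 6.00% rose. These shares apply to the counts of the next paragraphs too. Of 18 other mitochondrial genes of fatty acid, propionate and ketone handling, 12 fell and 1 rose in epididymal adipocytes on the HFD at 6 months (13 and 1 with the set term), with a median of -0.91. In ob/ob mice 15 fell and 1 rose, and at 14 months on the HFD 5 rose and 1 fell. Pccb, a subunit of propionyl-CoA carboxylase, which takes up the last carbons of odd chains, fell by 2.96 on the HFD at 6 months, or by 1.71 with the set term, and by 1.27 in ob/ob. Mmut, the mutase that follows it, fell by 1.94 on the HFD, by 1.62 with the term, and by 1.37 in ob/ob. The riser in both was Acss1, which activates acetate in mitochondria, at 1.20 and 0.42, and it fell by 0.76 at 14 months.

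Of 34 other peroxisomal enzymes and membrane proteins 12 fell and 1 rose on the HFD at 6 months (14 and 1 with the set term), 16 fell and 3 rose in ob/ob, and 4 rose and 1 fell on the HFD at 14 months. Pxmp2, a channel of the peroxisomal membrane, fell by 2.92 on the HFD at 6 months, fell by 2.14 with the term, and fell by 2.23 in ob/ob. Scp2, whose gene encodes the thiolase for branched chains, fell by 2.23 on the HFD, fell by 1.52 with the term, and fell by 1.09 in ob/ob. Agps and Far1, which make ether lipids in or at the peroxisome, were among the 3 that rose in ob/ob, at 0.82 and 0.78. Of 9 other peroxins 5 fell and 1 rose in each of these settings at 6 months (5 and 0 on the HFD with the set term), and 3 rose at 14 months. Pex13, part of the import pore, fell by 1.07 on the HFD at 6 months and 1.18 in ob/ob, and rose by 0.75 at 14 months.

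Among 17 regulators of the pathway, 12 fell and none rose in ob/ob epididymal adipocytes, where 15.0% of all probe sets fell and 14.8% rose. Pparg, the master factor of adipocytes, fell by 0.91, Ppara by 0.61 and its partner Rxra by 1.16. Acacb, which makes the malonyl-CoA that blocks carnitine palmitoyltransferase 1, fell by 2.57 in ob/ob, fell by 2.198 on the HFD at 6 months and fell by 2.12 there with the set term. On that diet 6 regulators fell and 2 rose, where 20.0% and 19.2% of all probe sets did, so the risers were no more frequent than that. The 2 were Ppard at 0.95 and the coactivator Ppargc1a at 0.58. Under the set term 4 fell and 1 rose, and Ppard, at 0.13, did not pass. At 14 months 3 rose on the HFD, Ppargc1a by 0.70, Ppargc1b by 0.64 and Esrrg by 0.76. Of 16 further genes that PPARs are known to drive, 6 rose at 14 months and none fell, including Cidea by 2.05 and Vnn1 by 1.45, which in ob/ob fell by 1.24 and 1.47. Cidea read 4.34 in ob/ob, below the median of 5.81 over all values, and was not shown there to be above background. The same holds for Ppargc1a in epididymal chow at 14 months, where it read 5.71. On the HFD at 6 months 4 of the 16 fell and 1 rose, or 4 and 2 with the set term. In ob/ob 7 fell and 1 rose with the term, which changes no estimate there. Their median was -0.43, against -0.07 over all probe sets. The shares of all probe sets given for ob/ob are from the fit without the term. The list medians were 0.29 for the regulators and 0.37 for the 16 genes at 14 months, against 0.03 over all probe sets. Cidea and Ppargc1a are also brown adipocyte markers, so those counts share genes. Of the 5 brown adipocyte markers 4 lay below 5.81 in epididymal chow at 14 months.

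Markers of other cells moved beside these results. Among all probe sets 8.88% rose and 6.14% fell from 6 to 14 months on chow in epididymal adipocytes. On the HFD 16.2% fell between these ages, or 8.08% with the set term, and from 6 to 18 months on chow 7.63% fell. In bone marrow on the HFD at 6 months 2.53% fell and 2.23% rose, or 1.41% and 0.431% with the term. Of 10 macrophage markers all rose in epididymal adipocytes on the HFD at 6 months (median 3.20, and 3.04 with the set term, where all 10 rose too), 9 rose in ob/ob, and 9 rose and 1 fell from 6 to 14 months on chow. Their mean level lay between 7.74 and 7.90 in epididymal chow arrays at 6 months, between 11.01 and 11.11 on the HFD at that age, between 10.23 and 10.97 in ob/ob and between 9.39 and 10.03 on chow at 14 months. From 6 to 18 months on chow 8 fell, and from 6 to 14 months on the HFD 8 fell (median -1.34), or 4 with the set term. All 4 proliferation markers rose on the HFD at 6 months (median 2.12) and in ob/ob (median 1.38), and all 4 fell from 6 to 14 months on the HFD, or 2 with the set term. With the set term 1 of these 4 rose and none fell on the HFD at 14 months, where 8.45% of all probe sets rose. Of the 10 macrophage markers 1 rose and 3 fell there with the term. Of 10 mature adipocyte markers 2 fell on the HFD at 6 months, no more than the 20.0% of all probe sets that did. Their median was -0.39, against -0.11 over all probe sets. With the set term 2 fell too, where 10.6% of all probe sets did, and the median was -0.76. In ob/ob 7 fell (median -1.07), where 15.0% of all probe sets did, and none passed at 14 months on the HFD. Of 5 brown adipocyte markers 3 rose on the HFD at 6 months (1 with the set term) and 4 at 14 months, where 19.2% (10.8%) and 6.00% of all probe sets rose. Of 5 skeletal muscle markers 2 fell on the HFD at 6 months (1 with the set term). With that term 2 rose at 14 months, where 8.45% of all probe sets did. The mean level of the muscle markers lay between 6.49 and 6.72 in epididymal HFD arrays at 14 months and between 5.94 and 6.32 on chow. That of the brown markers lay between 6.96 and 7.33, against 5.49 to 5.89. Of 5 mesothelial and 5 endothelial markers 3 each fell on the HFD at 6 months, when 1 endothelial marker rose, and 5 and 3 fell at 14 months. With the set term 4 and 2 fell at 6 months and none rose. From 6 to 14 months on chow 5 and 3 rose with the term. Both medians were 0.89 there, against -0.04 over all probe sets. In bone marrow on the HFD at 6 months 4 of 5 megakaryocyte markers fell (median -1.88), or 5 with the set term, and 3 of 10 mature adipocyte markers rose, or 1 with the term. No neutrophil marker passed there. Neutrophil markers were uneven in the epididymal chow arrays at 6 months, between 5.7 and 9.3. The part of these cells in the members' changes was not tested.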

How the data were processed

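The deposited values are on the log2 scale and were made by the authors from the Affymetrix scans, with 1 value for each probe set on each array. Their methods name gcRMA with quantile normalization in Partek, and the labels list both RMA and GCRMA, so which of them made the values is not settled. The values (1.93 to 14.63) were used as deposited. Array medians lay between 5.58 and 5.98, and arrays of 1 group correlated at 0.9552 or above. The number of arrays limits the precision. A second deposited table, of the authors' own diet comparison, was not used.

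Of 35556 probe sets 23410 carry a gene symbol in the platform annotation and were tested, 1621 of them with several symbols, and 12146 carry none. Group means were fitted with limma 3.58.1 (R 4.3.3) to the 30 arrays of the 10 groups up to 14 months, and to all 36 for the 18-month contrasts. The threshold was an adjusted p of 0.05 (Benjamini and Hochberg), with 2-fold counts beside it. On simulated data for the epididymal HFD contrast at 6 months, with 23410 probe sets, the fit found 66 of 66 probe sets shifted by log2 2, 58 of the 67 shifted by 1, and 19 of the 67 shifted by 0.5. It also called 10 of 23210 that were not shifted. The simulation shifted few probe sets and held no array set, while 20.0% fell and 19.2% rose in the real contrast. Its rates therefore do not carry over to that contrast. Every member is accounted for. Array values are given for the members with the smallest adjusted p, those that went against their step, and those of steps that differed. A few others were chosen after their values were seen. The members and all gene lists were chosen with earlier results of these data known. Alternatives were other scalings, filters, sets of arrays, a term for the array set (the set was found in the data), leave-one-out fits, and blocks by replicate number.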

Additional observations from a re-analysis of the deposited data

Results flagged for a closer look

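The effect of the HFD in epididymal adipocytes differed between 6 and 14 months, by a test of the interaction, in 25 members. In 8 of them the effect was called at both ages and in opposite directions, lower at 6 and higher at 14 months. With the term for the set of 8 arrays 4 of these, Acadvl, Acadl, Echs1 and Eci2, were called in opposite directions, while the falls of Etfa, Hadhb, Decr1 and Pex7 at 6 months did not pass. The rise at 14 months lost its call with 6 of the 6 arrays left out in turn for Etfa, with 5 for Echs1 and Decr1 and with 3 for Hadhb. For these the effect at 6 months minus that at 14 was -2.47 for Etfa, -2.11 for Acadvl, -1.85 for Hadhb, -1.74 for Pex7, -1.67 for Decr1, -1.50 for Eci2, -1.36 for Acadl and -1.22 for Echs1 (log2). With that term the 8 interactions ranged from -1.60 (Acadvl) to -1.01 (Hadhb), and all 8 passed. The effect of the HFD differed between the depots in 10 members at 6 months and in 1, Pdk4, at 14 months. No group has more than 3 arrays, so single arrays were not examined as outliers.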

How the results depend on the processing

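Under the alternatives other than leaving out an array, the member count stayed within 1.5 times its reported value in 6 of the 16 comparisons. On the HFD at 14 months in epididymal adipocytes 14 members were called, 27 with only the arrays compared, 25 with each array centred on its median, 23 with the set term and 25 without the set's arrays in mixed groups, all of them higher. From 6 to 14 months on chow in epididymal adipocytes 16 were called in place of 10 without those arrays. Against the HFD, ob/ob epididymal adipocytes had 3 called with the set term in place of 25. From 6 to 18 months in epididymal adipocytes 1 was called, and 11 with only the arrays compared, 2 with quantile normalization, 9 with centring, 2 among probe sets above the median level, 5 with the set term and 7 without the set's arrays in mixed groups.

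In bone marrow on the HFD at 6 months 4 were called, and 2 with unmoderated variances, 0 with only the arrays compared, 0 with the set term and 15 without the set's arrays in mixed groups. On the HFD at 14 months the count of 0 became 6, 3 and 4 with only the arrays compared, the set term and without those arrays. From 6 to 14 months on chow the count of 0 became 1 with only the arrays compared, with all 36 arrays, among probe sets above the median level and without those arrays, and 2 with quantile normalization and with the set term. At 18 months the count of 0 became 1 with unmoderated variances, 4 with quantile normalization and 4 among probe sets above the median level.

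The interaction of diet with depot at 6 months had 10 called and 16 with quantile normalization. At 14 months it had 1 called, and 0 with unmoderated variances or all probe sets of the table, 10 with only the arrays compared, 4 with all 36 arrays, 5 with centring, 3 among probe sets above the median level, 6 with the set term, 7 without the set's arrays in mixed groups and 0 with a replicate block of either kind. The cause of these shifts was not tested.

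Leaving out 1 array at a time gave 18 to 19 members for the HFD at 6 months and 9 to 13 at 14 months in epididymal adipocytes, 19 to 21 for ob/ob against chow and 20 to 24 against the HFD, 5 to 10 for 14 against 6 months on chow, 20 to 22 on the HFD, 1 to 2 for 18 months, 29 to 30 for the depots, 9 to 15 and 0 to 1 for the depot interactions at 6 and 14 months, and 21 to 24 for the age interaction. In bone marrow it gave 0 to 15 for the HFD at 6 months, lowest without chow array 3 or HFD array 2 and highest without chow array 1, 0 at 14 months and in ob/ob, 0 to 2 at 14 months on chow and 0 to 7 at 18, the highest without 6-month chow array 3. Of 184 member calls 145 held with each array left out.

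Of the 184 member calls 137 held with the set term, 40 were lost with the same sign, and 7 changed sign without passing. The 7 were Cat on the HFD at 6 months (-0.28), Slc25a20 (-0.066), Acadvl (-0.026), Acaa2 (0.042), Etfa (-0.16) and Hsd17b4 (-0.030) in ob/ob against the HFD, and Cpt1a from 6 to 14 months on the HFD (0.091), all in epididymal adipocytes. Replicate numbers were not used to pair the samples in the main fit. Deviations from the group means correlated above 0.1 in 3 of 18 depot pairs and 23 of 135 same-numbered pairs. Such correlations cannot show whether same-numbered pools share mice. With the replicate block 178 of 184 member calls held, and 40 of 42 with a block for each pool.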
